A study of Homo sapiens with 2 samples.

Results

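The genes described here control the entry into mitosis and the exit from it: the phosphatases CDC25A, CDC25B and CDC25C, the kinases WEE1 and PKMYT1, and CDC20, FZR1, UBE2C, FBXO5 and ESPL1 of the anaphase-promoting complex (APC/C) pathway. They were chosen by name as 10 genes of this pathway, out of 19775 genes that the array names with a single symbol. Earlier results of these data were known at that point, so comparisons with all genes are descriptions. Every probe set annotated to the 10 genes was taken, which gave 20 of the 54675 probe sets on the array. The cells were AGS, a line of epithelial origin established from a human gastric adenocarcinoma, and their RNA was hybridised to 2 one-colour Affymetrix arrays. The first was labelled control and the other galectin-3 silenced, with 1 array in each group. Galectin-3, the product of LGALS3, belongs to the lectins that recognise beta-galactosides. The silencing agent was a synthetic double-stranded small interfering RNA. The sources used here give neither its sequence nor the time after transfection, and they do not say how control cells were treated. A single array per group means that no difference below is backed by replicates. No test was made, and precision is limited by the number of arrays.

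Entry into mitosis is driven by the cyclin-dependent kinase CDK1 bound to cyclin B. WEE1 and PKMYT1 (also called Myt1) hold CDK1 inactive by phosphorylating residues at its ATP-binding site, and the CDC25 phosphatases remove these phosphates. Exit depends on the APC/C, a ubiquitin ligase that marks cyclin B and securin for destruction, first with its activator CDC20 and then with FZR1 (CDH1). UBE2C is the enzyme that starts the ubiquitin chains, FBXO5 (EMI1) inhibits the APC/C before mitosis, and ESPL1 is separase, the protease that cuts cohesin once securin is gone. Transcripts of many of these genes are known to be most abundant in G2 and mitosis.

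On the silenced array the CDC25 phosphatases, CDC20, UBE2C, FBXO5 and separase had lower signals, while the inhibitory kinase WEE1 and the APC/C activator FZR1 had nearly the same signal on both arrays. Differences are given as the log2 ratio of the silenced over the control signal. A gene counted as lower or higher when its signals differed by 2-fold or more, that is by 1 on the log2 scale. By this rule 4 of the 10 genes were lower (ESPL1, CDC25C, CDC20 and UBE2C) and 0 were higher. Over all 10514 genes above the background floor, 3.07% were lower by this rule and 3.31% higher. At 1.5-fold, 7 of the 10 genes were lower and 0 higher, where 10.4% of all measured genes were lower and 10.6% higher. The median log2 ratio was -0.83 over the 10 genes and -0.02 over all measured genes. A ratio under 0 was found for all 10 genes, and for 51.4% of all measured genes. WEE1 and FZR1 lay so close to 0 that their sign turned with the scaling or the probe set.

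The arrays and labels were checked first. The LGALS3 probe set above the floor read 20206 in the control and 2699.8 after silencing, so it was 7.48-fold lower. Epithelial markers were above the floor for 6 of the 6 on the array (EPCAM, KRT8, KRT18, KRT19, CLDN4 and ELF3), with summed signals of 91580 in the control and 112000 after silencing. With the deposited scaling all 6 had a ratio above 0, with a median log2 ratio of 0.38, from 0.04 for EPCAM to 1.08 for CLDN4, which was 2.12-fold higher. Their part in the results below was not tested. The 4 leukocyte markers on the array were under the floor on both arrays, at signals from 3.4 to 67.4. Of the 6 fibroblast and endothelial markers 4 were under the floor on both arrays. COL1A1 was above it on both, at 816.3 and 1502, and PECAM1 on the silenced array only. Because the sample is a bulk culture, fewer cells in G2 and mitosis and less of a transcript per cell cannot be told apart.

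The DNA before the start sites is shown because many genes of late cell cycle phases carry a cell cycle genes homology region (CHR) there, a short element bound by the MuvB complex, often near CCAAT boxes bound by NF-Y. The RefSeq promoter table of GRCh38.p14 matched 7 of the 10 genes, with 15 windows of 300 bases. Both strands were searched for the CHR letters TTTGAA and for their known variants, which are TTCGAA and also TTTAAA. The CCAAT box was searched too. The E2F letters were TTTGGCGC or, as the other form, TTTCCCGC. Capitals mark every match in the stretches below, which run 5′ to 3′ on the gene's own strand, with position -1 the base before the start site. A match on the other strand appears as its reverse complement. For CDC20, ESPL1, CDC25A and the FZR1 start farthest upstream, the last 100 bases before the start are given, and for CDC25C, FBXO5 and CDC25B 30 bases around the CHR letters at 1 of their annotated starts.
CDC20, chr1:43358881-43358980, plus strand: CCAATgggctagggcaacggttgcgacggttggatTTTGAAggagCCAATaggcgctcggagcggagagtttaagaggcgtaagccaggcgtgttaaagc
ESPL1, chr12:53268199-53268298, plus strand: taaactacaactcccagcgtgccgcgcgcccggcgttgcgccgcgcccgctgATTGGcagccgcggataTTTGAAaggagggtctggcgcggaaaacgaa
CDC25C, chr5:138331817-138331846, minus strand: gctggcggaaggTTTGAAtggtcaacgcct
FBXO5, chr6:152983059-152983088, minus strand: caccaaaTTCAAAgatTTTAAAagtaccag
CDC25B, chr20:3796260-3796289, plus strand: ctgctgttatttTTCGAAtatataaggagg
CDC25A, chr3:48188418-48188517, minus strand: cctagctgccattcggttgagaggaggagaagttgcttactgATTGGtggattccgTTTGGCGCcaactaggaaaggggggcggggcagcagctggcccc
FZR1, chr19:3506211-3506310, plus strand: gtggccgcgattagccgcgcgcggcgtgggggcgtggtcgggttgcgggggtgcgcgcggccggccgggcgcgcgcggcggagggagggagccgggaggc

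CHR letters lay in the last 100 bases before a start for 5 of the 7 genes, CDC20, ESPL1, CDC25C, FBXO5 and CDC25B. Any of these letters occur there in 8.54% of all 35116 windows of the table, and in at least 1 window of 10.5% of its genes. In CDC20 TTTGAA lay at positions -65 to -60 and CCAAT at -55 to -51. In ESPL1 TTTGAA lay at -31 to -26 with a reversed CCAAT at -48 to -44. In CDC25C TTTGAA lay at -30 to -25 of 1 start, with a reversed CCAAT at -85 to -81. Counted from another CDC25C start, TTTGAA lay after the start, at 44 to 49. FBXO5 held reversed TTTGAA at -40 to -35 and TTTAAA at -31 to -26. The rarer TTCGAA, found in 1.45% of all windows, lay at -38 to -33 of 1 CDC25B start. CDC25A had none of the CHR letters in its window but held the E2F letters TTTGGCGC at -44 to -37, found in 0.652% of windows. FZR1 had no match of any kind in the last 100 bases, and TTTGAA far from the start at -226 to -221. The 3 genes matched to the table that were at least 2-fold lower, ESPL1, CDC25C and CDC20, all carried TTTGAA and CCAAT in these 100 bases. FBXO5 and CDC25B, short of 2-fold, carried CHR letters and CCAAT there as well. CDC25A, with a log2 ratio of -0.81, carried CCAAT but no CHR letters, and FZR1 carried neither. WEE1, PKMYT1 and UBE2C had no window. A link between these letters and the ratios was not tested. Over whole windows TTTGAA occurs in 15.2% of the table, the TTTAAA variant in 12.2% and the CCAAT box in 34.6%. The other E2F form occurs in 1.63% of windows and in none of those of these genes. These are letter matches and not measured binding sites.

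**Figure D1:**
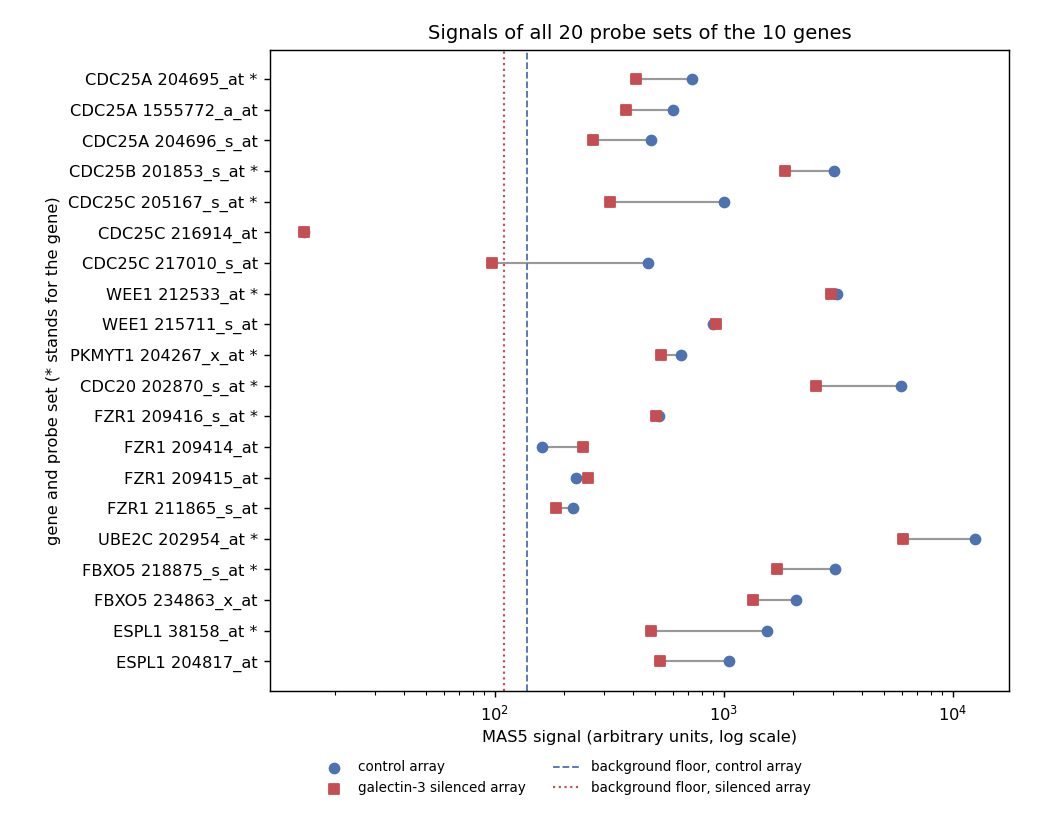
MAS5 signal (log axis) of each of the 20 probe sets of the 10 genes, with the control array as circles and the silenced array as squares, and vertical lines at the background floors of 138.4 (control) and 109.5 (silenced). The squares lie left of the circles for CDC25A, CDC25B, CDC25C, CDC20, UBE2C, FBXO5 and ESPL1, apart from a CDC25C probe set at 14.7 on both arrays, and nearly on them for WEE1.

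The 3 CDC25 phosphatases were all lower on the silenced array, CDC25C by the most. CDC25C, which acts on CDK1 with cyclin B at the onset of mitosis, had a signal of 1005 in the control and 317.4 after silencing. This is 3.17-fold lower, a log2 ratio of -1.66, and 48 of the 10514 measured genes had a lower ratio. A second CDC25C probe set had signals of 467.2 and 97.7. The latter was under the silenced array's floor of 109.5, so that the difference is a bound of at least 4.27-fold lower. The remaining CDC25C probe set, at 14.7 on both arrays, was under both floors and gave no ratio. Both CDC25C probe sets that could be read were therefore lower by more than 3-fold.

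CDC25A, which acts on CDK2 at the start of S phase as well as on CDK1, was read by 3 probe sets above the floor. Their signals were 725.1 and 412.6, 601.2 and 374.4, and 482.1 and 269.1, control first. The log2 ratios were -0.81, -0.68 and -0.84, a range narrower than the usual distance between probe sets of a gene, for which the SD over 4728 genes with several probe sets was 0.32. All 3 were therefore lower by a like amount, 1.61-fold to 1.79-fold, and none reached 2-fold. CDC25B, which is thought to start CDK1 activation at the centrosomes, had a single probe set with signals of 3021 and 1849.4, or 1.63-fold lower. Its log2 ratio of -0.71 was 0.95 above that of CDC25C, so that the CDC25 genes were lower by unequal amounts on these arrays.

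The kinases that oppose CDC25 had signals within 1.5-fold on the 2 arrays. WEE1, the nuclear kinase, had signals of 3122.8 and 2934.4 on its brighter probe set, a log2 ratio of -0.09. Its second probe set gave 895 and 920.6, a log2 ratio of 0.04. The WEE1 probe sets thus lay on both sides of 0, and 42.1% of all measured genes had a lower ratio than WEE1. PKMYT1, the kinase bound to membranes of the endoplasmic reticulum and Golgi, had signals of 647.1 and 531.9, which is 1.22-fold lower. Its log2 ratio of -0.28 comes from a single probe set of the _x_at kind, which can also read related transcripts, and 25.5% of measured genes were lower. The PKMYT1 ratio was thus the lower of the pair, by less than the SD of 0.32 between probe sets of a gene.

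**Figure D2:**
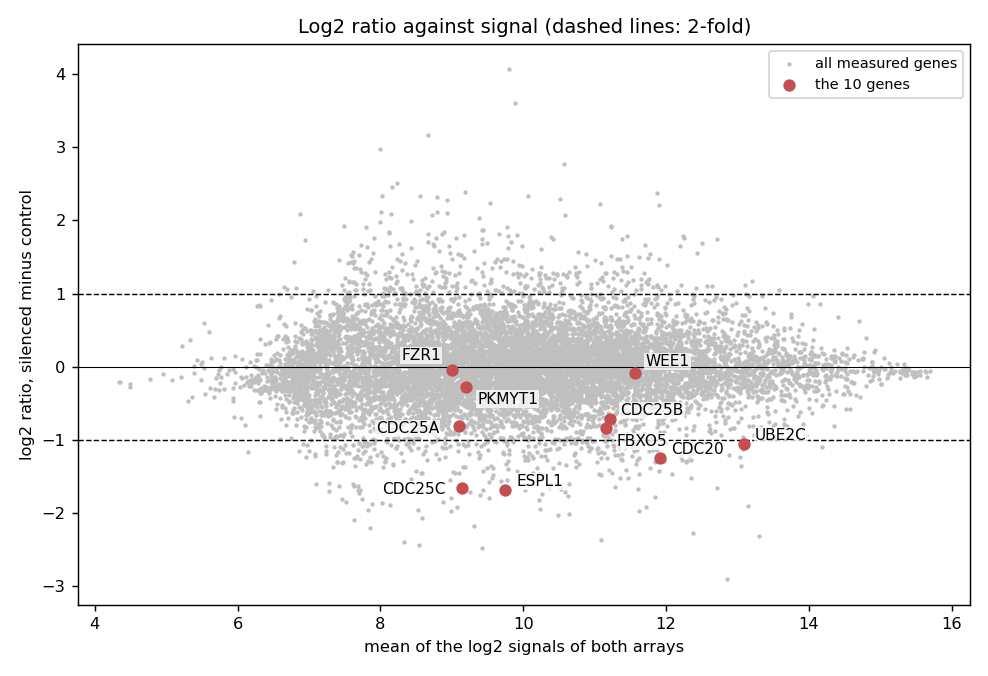
Log2 ratio (silenced minus control) against the mean log2 signal of both arrays, with grey points for the 10514 measured genes, red points for the 10 genes and dashed lines at 2-fold. ESPL1, CDC25C, CDC20 and UBE2C lie below the lower dashed line, and WEE1, FZR1 and PKMYT1 lie within the bulk of the grey points.

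The APC/C activators had unlike ratios. CDC20, which activates the complex in mitosis and is the protein held back by the spindle checkpoint, had signals of 5934.3 in the control and 2520.4 after silencing. It was 2.36-fold lower, with a log2 ratio of -1.24 from its only probe set, and 1.46% of measured genes had a lower ratio. FZR1, which takes over from CDC20 at mitotic exit and keeps the complex active in G1, was read by 4 probe sets. The brightest had signals of 520.6 and 504.5, a log2 ratio of -0.05. The others gave 225.9 and 255.5, 219.1 and 184.5, and 161.1 and 243.3, with log2 ratios of 0.18, -0.25 and 0.59. So 2 of the FZR1 probe sets were lower and 2 higher on the silenced array, and the one with the largest ratio had the lowest control signal of the 4, near the control floor of 138.4. The log2 ratio of the brightest FZR1 probe set was 1.19 above that of CDC20.

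UBE2C, the E2 enzyme that works with the APC/C, had signals of 12512.5 and 6036.9, or 2.07-fold lower, from its only probe set. Its log2 ratio of -1.05 was just past the rule of size. Setting the hybridization controls equal on both arrays brought it to -0.87, short of 2-fold. FBXO5, which blocks the APC/C in S phase and G2 and is itself destroyed in early mitosis, had signals of 3061.7 and 1707.2 on one probe set and 2059.1 and 1343.4 on the other. These were 1.79-fold and 1.53-fold lower, and the second is of the _x_at kind. Both FBXO5 probe sets were thus lower, and neither reached 2-fold.

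ESPL1, separase, had the lowest ratio of the 10 genes. Its signals were 1537.4 in the control and 481 after silencing, 3.20-fold lower with a log2 ratio of -1.68. Of the 10514 measured genes 45 had a lower ratio. Its other probe set gave 1051.6 and 525.7, so that the silenced signal was 49.99% of the control. Both probe sets were thus lower by at least 2-fold, and their log2 ratios lay 0.68 apart, more than the SD of 0.32 between probe sets of a gene.

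Over all 20 probe sets, 18 were above the floor on both arrays. Of these 15 had a ratio under 0 and 3 above it, namely 1 of WEE1 and 2 of FZR1, while 52% of the 17615 named probe sets that cleared both floors had a ratio under 0. At least 2-fold lower were 5 of the 18, beside 3.17% of those 17615. Among the 5 genes with a single probe set above both floors (CDC25B, CDC25C, PKMYT1, CDC20 and UBE2C) no second reading of this kind exists, though CDC25C had the bound given above. Of the genes with a mean signal within the range of the 10 genes, 3.13% were at least 2-fold lower, so that the level of the signal alone made little difference to the background.

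The other genes of the pathway were described from lists set by function. Over all measured genes 3.07% were lower and 3.31% higher by 2-fold or more, which is the background for each list. The core subunits of the APC/C did not share the difference of CDC20 and UBE2C. Among 13 measured subunits 0 passed 2-fold in either direction, 7 ratios were under 0 and 6 above, and the median log2 ratio was -0.03. ANAPC13, a small stabilising subunit, had signals of 5619.4 and 9356.1, a log2 ratio of 0.74. ANAPC7, a subunit of the arm that binds the activators, had a log2 ratio of -0.41, with signals of 1844 and 1387.7. CDC16 had a log2 ratio of 0.04 on its brightest probe set and -1.54 on another, and was singled out after its values were seen.

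The next list held genes of the spindle checkpoint and other APC/C enzymes and regulators, and PSRC1 was counted with them. Among 11 measured genes 4 were lower by 2-fold or more and 0 higher, beside 3.07% and 3.31% of all measured genes. All 11 had a ratio under 0, beside 51.4% of all measured genes, and the median was -0.80. With the hybridization controls set equal 2 of the 11 were lower by 2-fold or more, and 8 had a ratio under 0. PSRC1, a microtubule-associated protein, had signals of 891.3 and 246.7, which is 3.61-fold lower. The checkpoint kinases BUB1, at 4135.5 and 1707.1, and TTK, at 2896.6 and 1344, were 2.42-fold and 2.16-fold lower, and BUB1B (BubR1), a part of the complex that inhibits CDC20, was 2.15-fold lower. UBE2S, which lengthens the ubiquitin chains that UBE2C starts, had signals of 14765.9 and 10783, a log2 ratio of -0.45. It was named, as the partner of UBE2C, after its value was seen.

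Known substrates of the APC/C, the proteins that CDC20 and FZR1 bring to the complex, had the lowest median of the related lists. Among 25 measured genes 16 were lower by 2-fold or more and 0 higher, beside 3.07% and 3.31% of all measured genes. All 25 had a ratio under 0, beside 51.4% of all measured genes, and the median log2 ratio was -1.11. With the hybridization controls set equal 10 were lower by this rule, and 23 had a ratio under 0. The mitotic kinase PLK1, which also activates CDC25C and triggers the loss of WEE1 and FBXO5, had signals of 2895 and 709.9, or 4.08-fold lower. The spindle protein DLGAP5 was 3.94-fold lower, the hyaluronan receptor and spindle protein HMMR 3.11-fold, and the centrosomal kinase NEK2 2.87-fold. These values are of transcripts, and the loss of the proteins through the APC/C was not measured. Many of the substrates are genes of G2 and mitosis, and the share of cells in each phase was not measured.

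Regulators that act on CDC25 and WEE1 from above were counted next. Of 19 measured in the list of CDK1, CDK2 and upstream regulators, PLK1 was the 1 gene lower by 2-fold or more and 0 were higher, with a median of -0.14. This share is near that over all measured genes, of which 3.07% were lower and 3.31% higher by the same rule. PLK1 is also in the list of substrates. TOM1L1 had a log2 ratio of -0.19 on its brightest probe set and 1.61 on another, and was named after its values were seen. Without _s_at and _x_at probe sets 1 of the 15 genes still measured was higher by 2-fold or more. CDK1, the target that CDC25 and WEE1 share, had signals of 17214.4 and 9020.4, which is 1.91-fold lower, and its 2 other probe sets had log2 ratios of -0.93 and -0.87. It was named for this role after its value was seen. The checkpoint kinase CHEK1, which inactivates CDC25 proteins and was also named for its role, had a log2 ratio of -0.24. The 14-3-3 proteins, which hold phosphorylated CDC25 in the cytoplasm, had 0 of 7 past 2-fold and a median of -0.02, with YWHAQ the lowest at a log2 ratio of -0.27 and YWHAZ the highest at 0.14. The Greatwall and PP2A-B55 genes, which set the phosphatase that reverses CDK1 phosphorylation, had 0 of 9 past 2-fold and a median of -0.05. The B55 subunit PPP2R2D was at -0.40 and the inhibitor ENSA at -0.38, although other ENSA probe sets lay between 0.06 and 0.89. PPP2CA was at -0.05 on its brightest probe set and at -1.0 on another, and was named after its values were seen.

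**Figure D3:**
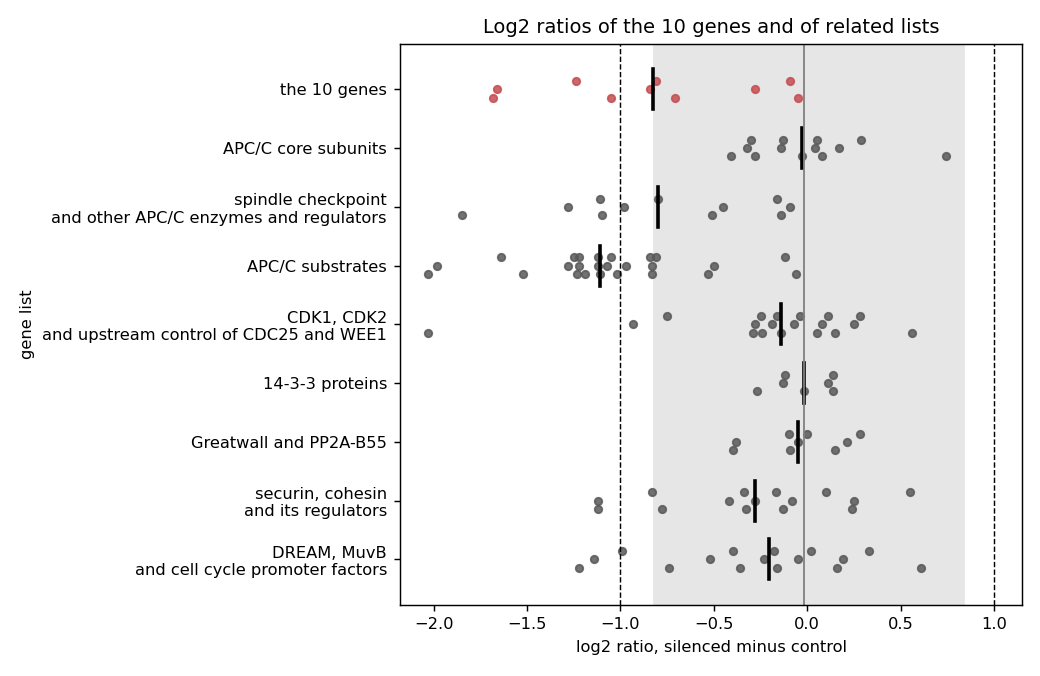
Log2 ratio (silenced minus control) of each measured gene of the 10 genes and of 8 related lists. Points are genes, black bars are list medians, dashed lines mark 2-fold, the grey line is the median of all measured genes and the grey band spans their 5th to 95th percentile, -0.82 to 0.84. The medians of the 10 genes (-0.83), the spindle checkpoint list (-0.80) and the APC/C substrates (-1.11) lie at or near the lower edge of the band or beyond it, and the other medians lie between -0.28 and -0.02.

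Beside separase itself, securin and SGO1 passed 2-fold, and the other measured genes of their list did not. Of 15 measured genes of securin, cohesin and its regulators, 2 were lower by 2-fold or more and 0 higher. Over all measured genes the shares were 3.07% and 3.31%. The median of the list was -0.28, and it was -0.03 with the median of each gene's probe sets above the floor. PTTG1 (securin), the inhibitor of ESPL1 and an APC/C substrate, had signals of 12771.3 and 5877.3, or 2.17-fold lower. Its probe set is of the _x_at kind, which can also read related transcripts. SGO1, which protects centromeric cohesin from removal, was 2.18-fold lower, with a signal of 121 on the silenced array that was near the floor. Setting the hybridization controls equal brought both PTTG1 and SGO1 short of 2-fold. PTTG1, SGO1 and CDCA5 are also in the list of substrates, so both lower genes of this list were already counted there. The cohesin ring subunits SMC1A, SMC3 and RAD21, the subunit that separase cuts, had log2 ratios of -0.13, 0.10 and -0.42, and were named for their role. So separase and securin were both lower on the silenced array, and these cohesin ring subunits were within 1.5-fold.

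Of 16 measured factors that act at cell cycle promoters, 2 were lower by 2-fold or more and 0 higher, with a median of -0.21. Over all measured genes the shares were 3.07% and 3.31%. The 2 lower factors were FOXM1, which was 2.32-fold lower, and MYBL2 (B-MYB), which was 2.20-fold lower. FOXM1 had signals of 1932.9 and 832.3 on a probe set of the _x_at kind, and MYBL2 had signals of 4564.4 and 2078.1. Both factors join the MuvB complex at CHR elements, and FOXM1 is also in the list of substrates. LIN54, the MuvB subunit that reads the CHR, was named for this role. It had signals of 144.7, near the control floor, and 98.1, under the floor, so that it was at least 1.32-fold lower. Of the other MuvB subunits, LIN37 went the other way, at 495.6 and 755.8, a log2 ratio of 0.61. LIN52 had a log2 ratio of -0.16 on its brightest probe set and -0.72 on another. RBBP4 had one of -0.52, with its other probe sets from -0.95 to -0.01. The probe set standing for LIN9 was under both floors, and another LIN9 probe set above them had a log2 ratio of -0.68. Of the MuvB subunits LIN37 alone thus had a ratio above 0, on a single probe set above both floors. Among the repressive partners of MuvB, the pocket protein RBL1 had a log2 ratio of -0.99 on its brightest probe set and of -0.47 and -0.41 on the others. RBL2 had one of 0.33 on its brightest probe set and 0.11 on another, and both genes were named after their values were seen. The subunits of NF-Y, which binds CCAAT, had log2 ratios of -0.05, 0.16 and 0.19.

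The order of the 10 genes by log2 ratio, from the lowest, was ESPL1, CDC25C, CDC20, UBE2C, FBXO5, CDC25A, CDC25B, PKMYT1, WEE1 and FZR1. The widest gaps between neighbours in this order were 0.43, from CDC25C to CDC20 and again from CDC25B to PKMYT1. The other gaps were at most 0.21. The SD of 0.32 between probe sets of a gene is that of 1 value, and a gap between 2 values varies more. The order of neighbours is therefore not settled, also across the gaps of 0.43. The order of ESPL1 among the lower genes also depends on the probe set, since its own 2 lay 0.68 apart. That SD describes probe sets on the same RNA and holds no spread between cultures. The scaling of the arrays moved all ratios together. With the hybridization controls set equal, the median of all genes was 0.17 and that of the 10 genes -0.65, and with the poly-A controls set equal they were -0.25 and -1.06. Relative to all genes the median of the 10 genes was -0.81 in both cases. The counts moved with the scaling too. With the hybridization controls set equal 3 of the 10 genes were at least 2-fold lower, beside 1.74% of all measured genes (183 lower and 576 higher, in place of 323 and 348). With the poly-A controls set equal 6 were, beside 6.02% (633 lower and 186 higher), and 0 of the 10 were higher in either case.

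**Figure D4:**
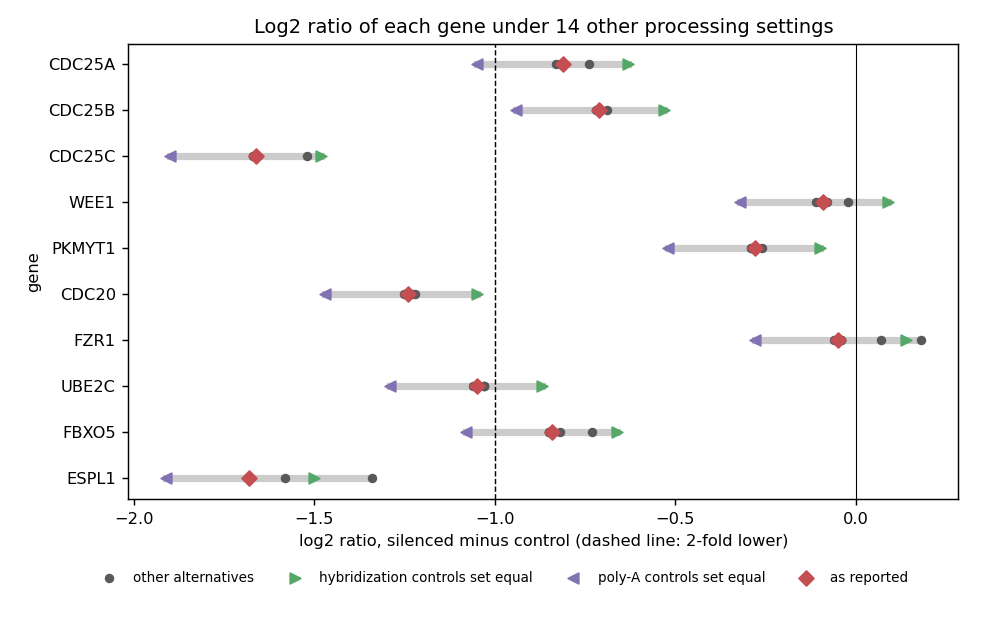
Log2 ratio (silenced minus control) of each of the 10 genes as reported (diamonds) and under up to 14 other processing settings (other symbols), with grey bars over their whole range and a dashed line at 2-fold lower. CDC25C, CDC20 and ESPL1 lie left of the dashed line under every setting that could read them, WEE1 and FZR1 span 0, and the scalings on the 2 kinds of control probe sets form the ends of most ranges.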

How the data were processed

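Biotin-labelled cRNA was made from 6 ug of total RNA, per the labels' protocols. The authors deposited linear intensity values from MAS5, per the submitters' processing notes. The sources used here do not give its version, scaling target or filters. Both arrays had a 2% trimmed mean of 500.1, so the scaling was kept. A common mean hides any change in the amount of RNA per cell.

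The platform annotation named the probe sets (41097 with 1 symbol). Signals were raised to a floor on each array, the 95th percentile of 135 olfactory receptor probe sets (138.4 control, 109.5 silenced). A gene above it on at least 1 array was measured (10514), and above it on 1 array only its ratio is a bound. Each gene took its brightest probe set, leaving out _x_at where it had another. Python 3.11.15, pandas 2.3.3 and statsmodels 0.14.6 were used, and the calculation of gene values was checked on simulated arrays with known changes, which is no test between the groups. The text names all 10 genes, and in each of 8 lists up to 4 members past 2-fold or the 2 largest. Members and lists were chosen with earlier results of these data known. Alternatives covered scaling, floor, offset, probe set choice and fold.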

Additional observations from a re-analysis of the deposited data

How the results depend on the processing

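The count of genes at least 2-fold lower was 4 of 10 as reported and within 1.5 times of this, that limit included, under 13 of 15 alternatives. It was 2 of the 5 genes still measured without _s_at and _x_at probe sets, which leaves CDC25B, PKMYT1, CDC20 and FBXO5 with no probe set and CDC25C with 1 under both floors, and 7 at 1.5-fold. It was 3 with the hybridization controls set equal and 6 with the poly-A controls set equal, where CDC25A and FBXO5 also passed. The median log2 ratio ran from -1.06 to -0.65 over 14 alternatives. All 10 ratios stayed as reported with no floor, a floor 2 times higher or the array median as floor. The same held with the higher floor on both arrays and with the brightest probe set of any kind. These alternatives could not move the counts and add no support. CDC25C and CDC20 were at least 2-fold lower in all 13 alternatives that could read them, ESPL1 in all 14, where it was -1.34 with the median of its probe sets, and UBE2C in 13 of 14. WEE1 ran from -0.32 to 0.09 and FZR1 from -0.28 to 0.18, so neither has a settled direction. Of the related lists, the medians of the APC/C substrates (-1.34 to -0.93) and the spindle checkpoint list (-1.03 to -0.61) stayed under 0, as did those of the cohesin (-0.52 to -0.03) and promoter factor lists (-0.44 to -0.03), while those of the APC/C core, CDK1, 14-3-3 and Greatwall lists took both signs. With the hybridization and then the poly-A controls set equal, the lower genes numbered 10 and 21 among the substrates (16 as reported), 2 and 6 in the checkpoint list (4), 0 and 4 in the cohesin list (2) and 1 and 3 among promoter factors (2). No paired analysis was possible because each group has 1 array. No replicate could be left out for the same reason. Signals near the floor, as for FZR1, SGO1 and LIN54, limit those ratios.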

Other observations

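The promoter letters were also counted over all measured genes with a RefSeq window, as a description with no test. In the 100 bases before a start, CHR letters occurred in 7.51% of 8708 measured genes, in 17.8% of the 270 that were at least 2-fold lower and in 13% of the 277 at least 2-fold higher. CHR letters together with CCAAT in the same window occurred in 2.01% of measured genes, in 28 of the 270 lower genes (10.4%) and in 9 of the 277 higher genes (3.25%). Among the genes of mitotic control both occurred together in 5 of 7. Genes with several annotated starts have more chances of a match, and the number of starts was not matched between these groups.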
